A study of Mus musculus with 15 samples.

Results

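The hemibrains of 5 mice on the standard laboratory diet (STD) were compared with a pool of RNA from 11 mouse cell lines that was hybridised on the same arrays. These 5 arrays were all STD arrays of a series of 15, the others being 5 arrays each of a diet enriched in n-3 polyunsaturated fatty acids (PUFA) and of a balanced diet. Each array carried left hemibrain RNA of 1 male C57BL/6j mouse, labelled with Cy5, and the commercial reference pool, labelled with Cy3. The mice had received their diet from 3 weeks of age for 24 weeks, and the ratio of n-3 to n-6 PUFA was 1 to 6 in STD, 7 to 1 in the enriched diet (ERD) and 1 to 1 in the balanced diet (BLD). The labels name no transgene or deleted allele and do not name the cell lines of the pool. Every value below is a log2 ratio of hemibrain over pool unless a fold or a signal is stated, so a positive value means more signal from the hemibrain.

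A universal reference RNA is a mixture of dividing cultured lines chosen so that most genes give some signal, and it serves as a common denominator. A brain hemisphere holds mostly non-dividing neurons together with astrocytes, myelinating oligodendrocytes, microglia, vessel cells and choroid plexus. Cultured lines proliferate on a substrate or in suspension, and they express genes of DNA replication, mitosis, ribosome production and, for adherent lines, extracellular matrix. The comparison describes which transcripts each side holds more of. It cannot tell the tissue from the dye, because the hemibrain was in Cy5 and the pool in Cy3 on every array. The pool was a single preparation, so the spread over arrays covers the mice and the hybridisations but not the pool.

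Between 24764 and 29140 spots per STD array were well above background in Cy5, and between 29742 and 35597 in Cy3. The median background-subtracted signal lay between 3.70 and 7.15 in Cy5 and between 29.1 and 37.3 in Cy3. The 5 arrays correlated with each other across genes at r = 0.935 to 0.969, and STD 5 stood lowest with a median r of 0.938. The 5 arrays lay on 5 different slides and shared a scan day, so a slide effect is part of the spread given here. The scanner software normalized the dyes so that most ratios lie near 0. For spike-in controls, whose true ratios are known, it gives a line of observed on expected log ratio per array. The slope lay between 0.865 and 0.883, so the difference from the expected value varied with the ratio. The intercept, which is the log2 shift at an expected ratio of 0, was 0.95, -0.08, 1.35, 1.07 and 1.07 on STD 1 to STD 5. A ratio within about 1 log2 unit of 0 therefore has no settled sign on an absolute scale. Below, "with the spike-in zero" means that this intercept was taken away on each array as a constant, without a change for the slope. Loess is a curve that removes a dye bias varying with brightness, and "without loess" means that normexp, a background correction that keeps signals positive, and median centring were used alone.

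Ratios were tested for 25308 genes, of which 14916 had a symbol, after a filter that kept genes well above background in at least 1 channel on 4 or more of the 5 arrays. A gene was called when limma's adjusted p for a mean ratio different from 0 was under 0.05 and the ratio was at least 2-fold. Of all genes 6169 (24.4%) were called higher in hemibrain and 8468 (33.5%) lower, and the median ratio was -0.24. Among the 16267 genes well above background in both channels on all 5 arrays, called measured in both channels below, 4155 (25.5%) were higher and 3919 (24.1%) lower, around a median of 0.05. Both shares are the background for the counts of each gene list below. A further 582 genes were above background in hemibrain alone and 2171 in the pool alone. Such genes could pass the filter only through the channel where they were high, so they are counted apart from the others, and a fold for them is a lower limit. A gene seen in the other channel on some but fewer than 4 arrays also passed through 1 channel only. The mean and SD of that gene rest in part on signal not well above background. Over all tested genes, those of 1 channel included, 2440 were at least 8-fold higher in hemibrain and 1779 at least 8-fold lower. Of these, 1089 and 433 were measured in both channels, while 567 and 885 were seen in hemibrain alone and in the pool alone.

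**Figure D1:**
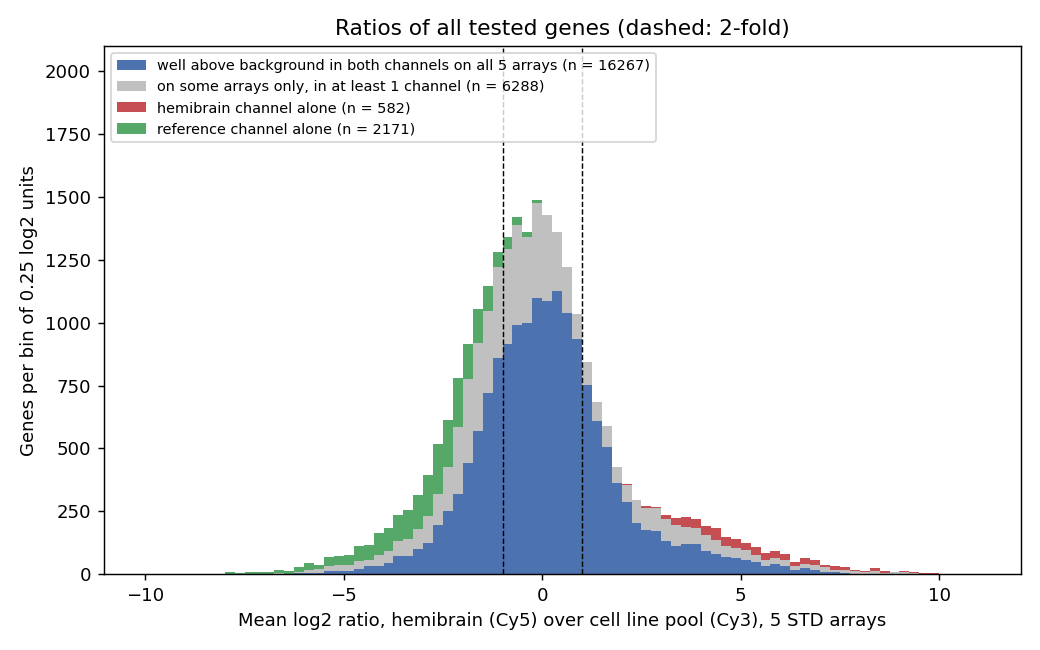
Number of genes (y axis) in bins of 0.25 by their mean log2 ratio of hemibrain over cell line pool on the 5 STD arrays (x axis), stacked with a colour for the channels in which a gene was well above background. The 16267 genes measured in both channels spread to both sides of a median of 0.05, while the 582 genes of the hemibrain channel alone lie to the right and the 2171 of the pool channel alone lie to the left.

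The named genes with the highest ratios among those measured in both channels were led by neuronal and astrocytic membrane genes. Syt1, the calcium sensor of synaptic vesicle fusion, had ratios of 9.31, 8.83, 9.39, 9.24 and 9.41 on STD 1 to STD 5, a mean of 9.23 ± 0.24 (SD, n = 5) and a fold of 603 (limma adjusted p = 1.02e-07). All 5 arrays lay within 1 log2 unit of each other. Cntn1, an adhesion molecule of axons and nodes of Ranvier, followed at 8.81 ± 0.29, then Gpm6a, a neuronal membrane glycoprotein, at 8.65 ± 0.39, and Sparcl1, a matricellular protein that astrocytes release, at 8.32 ± 0.27. Ppp1r9a, the spine scaffold neurabin, reached 8.30 ± 0.36, and Cspg5, a brain proteoglycan, 7.66 ± 0.22. A second probe for Ppp1r9a gave 3.78, so its size depends on the probe.

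At the other end stood Anxa1, a calcium-dependent phospholipid-binding protein, with ratios of -8.34, -8.48, -8.47, -8.25 and -8.63 and a mean of -8.44 ± 0.15 (SD, n = 5), which is 346-fold more signal from the pool (limma adjusted p = 1.02e-07). Emp1, an epithelial membrane protein, lay at -6.76 ± 0.14. Uhrf1, which guides maintenance methylation to newly copied DNA, lay at -6.53 ± 0.43, and Mki67, the proliferation antigen Ki-67, at -6.20 ± 0.30. Cdkn2a, the locus of the p16 and p19Arf tumour suppressors, lay at -6.06 ± 0.30, Col1a1, a chain of type I collagen, at -6.05 ± 0.24, and Vim, the intermediate filament of mesenchymal cells, at -5.82 ± 0.45. None of the 5 arrays had a value above -5 for any of these 7 genes.

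Among genes seen in hemibrain alone, the strongest by hemibrain signal was Gkn1, named for a stomach mucosal protein, at least 49-fold higher. It was followed by the cannabinoid receptor gene Cnr1 (at least 43.3-fold), Gjb6, the astrocytic gap junction protein connexin 30 (at least 41.8-fold), Chl1, a neural adhesion molecule (at least 32-fold), and Omg, the oligodendrocyte myelin glycoprotein (at least 30.4-fold). Among genes seen in the pool alone, Ifi202b, an interferon-activated gene, was at least 19.8-fold lower in hemibrain. Hoxc6, a homeobox gene of the trunk, was at least 14.7-fold lower and Thbs1, a matrix glycoprotein, at least 10.4-fold. These limits set the bright channel against the lowest signal counted as above background, and they are open to dye bias.

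Neuronal genes stood above the pool. Of 30 pan-neuronal genes measured in both channels, 30 were higher and 0 lower, with a median of 4.62 against 0.05 over all such genes. The median of the list on a single array lay between 4.62 and 4.72. Tubb3, the neuronal beta-tubulin, had ratios of 5.58, 5.56, 5.71, 5.35 and 5.91 and a mean of 5.62 ± 0.21. Elavl4, an RNA-binding protein of neurons, had 5.37, 5.42, 5.34, 5.63 and 5.31 and a mean of 5.42 ± 0.12. Both genes were high on all 5 arrays and no array overlapped 0. Snap25, a core SNARE protein of synaptic vesicle release, was lower in ratio than most of the list at 2.30, 2.54, 2.32, 2.57 and 2.05, mean 2.36 ± 0.21, and it read -0.60 without loess. Nefl, the light neurofilament, was seen in the pool on 4 of the 5 arrays and had a mean of 8.99 ± 0.29.

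The synaptic lists showed the same direction. All 20 members of the glutamatergic synapse list measured in both channels were higher, with a median of 4.77, and 8 more were seen in hemibrain alone. Camk2n1, an inhibitor of the synaptic kinase CaMKII, lay at 7.48 ± 0.25. Of the GABAergic list, 12 of 14 members were higher around a median of 4.93, and 8 were seen in hemibrain alone. Gad1, which makes GABA from glutamate, was seen in the pool on 4 of the 5 arrays and lay at 8.26 ± 0.51. Of the vesicle release list, 23 of 24 were higher, with a median of 4.05, and Vamp2, the vesicle SNARE, had values of 4.77, 4.59, 4.49, 4.52 and 4.60. Of the voltage-gated and potassium channel list, 14 of 15 were higher, with a median of 4.26.

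RNA-binding proteins that steer neuronal splicing and translation were above the pool in 14 of 18 cases and below it in 0, around 2.59, or -0.02 without loess. Khdrbs3, a splicing regulator of the STAR family, had values of 7.09, 6.98, 6.99, 7.20 and 7.50 and a mean of 7.15 ± 0.21. Rbfox1, which regulates neuronal exons, had 6.33, 5.86, 5.91, 5.88 and 5.35 and a mean of 5.87 ± 0.35. Both were above 5 on every array. Nova1, Msi2 and Fxr2 read 0.23, 0.48 and 0.93 and were not called.

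Peptide hormones and their packaging genes were high as a group. All 17 neuropeptide genes measured in both channels were higher, with a median of 4.54. Penk, which encodes the enkephalin precursor, had values of 7.41, 7.35, 7.90, 7.56 and 7.99 and a mean of 7.64 ± 0.29. Chgb, a granin of dense-core vesicles, had 7.80, 7.22, 7.85, 7.43 and 7.63 and a mean of 7.59 ± 0.27. Scg2, another granin, was seen in the pool on 2 of the 5 arrays and read 8.88, 9.83, 7.68, 9.88 and 9.89. These ratios rest in part on pool signal not above background, so differences between the arrays are uncertain. Crh, the corticotropin-releasing hormone, was seen in hemibrain alone (at least 5.68-fold). Agrp, the appetite peptide of the arcuate nucleus, which was above background in hemibrain on 4 of the 5 arrays, differed from these at 0.34 ± 1.28 and was not called.

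Some promoters of these genes and of the pan-neuronal ones carry the letters TGACGTCA, the full cyclic AMP response element that the factor CREB is known to bind. Those of Scg2, Cartpt and Chgb are shown, from 250 bases before to 30 after the RefSeq start in GRCm38.p6, because these members hold the letters and were called higher. The genes were chosen after their ratios were known, and the capitals mark the match. Scg2 lies at chr1:79439997-79440276 on the minus strand with the match starting 68 bases before the start. Cartpt, the gene of the peptide CART, read 6.22 ± 0.27 and was seen in the pool on 4 of the 5 arrays. It lies at chr13:99900654-99900933 on the minus strand with the match 112 bases before the start, and Chgb lies at chr2:132781392-132781671 on the plus strand with the match 72 bases before it.
Scg2: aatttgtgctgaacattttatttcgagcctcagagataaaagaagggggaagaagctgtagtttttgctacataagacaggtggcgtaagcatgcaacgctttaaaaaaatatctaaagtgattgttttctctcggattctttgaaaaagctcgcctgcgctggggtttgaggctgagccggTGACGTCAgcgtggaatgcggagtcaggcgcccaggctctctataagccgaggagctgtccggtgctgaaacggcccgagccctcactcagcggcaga
Cartpt: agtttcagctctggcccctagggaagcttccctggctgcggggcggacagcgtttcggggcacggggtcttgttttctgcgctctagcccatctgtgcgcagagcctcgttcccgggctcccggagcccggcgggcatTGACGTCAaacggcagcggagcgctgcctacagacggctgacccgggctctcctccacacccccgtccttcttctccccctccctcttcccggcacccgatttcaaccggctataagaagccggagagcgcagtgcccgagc
Chgb: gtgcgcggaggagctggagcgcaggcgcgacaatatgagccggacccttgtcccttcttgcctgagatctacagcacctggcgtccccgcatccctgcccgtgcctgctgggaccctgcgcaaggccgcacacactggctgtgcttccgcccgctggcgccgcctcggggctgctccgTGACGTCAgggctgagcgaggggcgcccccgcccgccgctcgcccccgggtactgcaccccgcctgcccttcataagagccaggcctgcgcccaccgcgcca
Read in the whole 300 bases of the RefSeq table on both strands, TGACGTCA was present in 15% of the 20 neuropeptide promoters found and 12% of the 25 pan-neuronal ones, against 1.88% of all 27025. Over all genes measured in both channels the share was 3.02% of those called higher, 2.81% of those called lower and 3.85% of those not called. A match is a description of these letters and not of binding.

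Markers of brain regions were read next, as a description. The lists were chosen with earlier results of these data known, so they cannot check the labelled tissue. Of the hippocampus and cortex markers, 9 of 11 measured in both channels were higher around 3.41, or 0.63 without loess, led by Crym, a thyroid hormone-binding protein, at 7.11 ± 0.26. Of the striatal list, 12 of 13 were higher around 4.06, or 1.43 without loess. Of the cerebellar list, 4 of 6 were higher around 2.16, or 0.11 without loess, and 5 of the 16 on the array did not pass the filter. Among those 5 were Gabra6, a receptor subunit, and Cbln3, which are defining genes of cerebellar granule cells. Of the 11 members tested in any channel, 9 were higher and 0 lower, and 2 were seen in hemibrain alone. The highest ratio of a member measured in both channels was 6.86. The labels do not say whether the cerebellum was part of the hemibrain. Of 10 pituitary genes on the array, 6 did not pass the filter. Of the 4 tested, 1 was measured in both channels and was higher at 2.34, while 3 were lower. Prl, prolactin, was seen in the pool alone. Of the monoamine and acetylcholine list, 5 of 8 were higher, with a median of 2.02 that turned to -0.26 without loess. The dopamine transporter gene Slc6a3 was seen in hemibrain alone (at least 6.97-fold).

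Activity-regulated genes split. Of 17 measured in both channels, 6 were higher and 4 lower, and the median of 0.10 turned to -0.77 with the spike-in zero and -2.51 without loess. Arc, a synaptic effector, had values of 4.65, 4.33, 4.01, 4.04 and 4.35 and Npas4, a neuron-specific immediate-early factor, of 4.32, 4.08, 3.76, 3.48 and 4.28. Both were well above 0 on every array. The lower members were the transcription factor genes Fos at -2.18 ± 0.54 and Jun at -1.06 ± 0.22, with Ier2 at -2.64 ± 0.17 and Btg2 at -1.56 ± 0.35. Egr1, another immediate-early factor, lay at 0.15 and was not called. Bdnf, a neurotrophin, had values of -0.56, -0.26, -0.18, -0.09 and 0.03 and a mean of -0.21 ± 0.22 (limma adjusted p = 0.12), so it was not called.

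Glial genes were also mostly above the pool. Of the astrocyte list, 20 of 21 members measured in both channels were higher around 4.71. Mlc1, a membrane protein of astrocytic endfeet, had values of 7.27, 7.21, 7.66, 7.34 and 7.87, and Slc1a3, a glutamate transporter, of 6.96, 6.36, 6.35, 6.58 and 6.92. Gja1, connexin 43, which many cultured cells also make, was the exception at -1.12 ± 0.33. Gfap, the astrocytic filament, was seen in the pool on 3 of the 5 arrays and had values of 5.41, 5.45, 5.13, 5.74 and 5.34, a mean of 5.41 ± 0.22. A further Gfap probe read 7.88. The astrocyte genes thus overlap the neuronal ones in the size of their ratios.

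Of the myelin and oligodendrocyte list, 16 of 19 were higher and 2 lower, around 3.92. Bcas1, a gene of myelinating oligodendrocytes, had values of 5.71, 5.13, 5.85, 5.55 and 5.79 and a mean of 5.61 ± 0.29. Mbp, myelin basic protein, had 2.39, 2.17, 2.31, 2.06 and 2.58 and a mean of 2.30 ± 0.20, with further probes at 3.85 and 1.36. Without loess the value was -0.29. The 2 members that were lower were Pdgfra, the growth factor receptor of oligodendrocyte precursors and fibroblasts, at -2.59 ± 0.21, and Ndrg1, a stress-responsive gene of many cell types, at -2.19 ± 0.24.

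Microglial genes stood closer to the pool. Of 14 measured in both channels 7 were higher and 0 lower, around a median of 0.85 that became -0.03 with the spike-in zero and -1.87 without loess. The complement gene C1qa had values of 4.78, 4.40, 5.31, 4.20 and 4.45 and a mean of 4.63 ± 0.43. Cx3cr1, the fractalkine receptor, was seen in the pool on 4 of the 5 arrays and had 6.20, 6.22, 6.35, 6.40 and 7.16 and a mean of 6.47 ± 0.40, with STD 5 above the other 4. P2ry12 was seen in hemibrain alone (at least 1.69-fold). Tyrobp, Trem2 and Laptm5, which macrophage lines also express, read -0.02, -0.69 and -0.90 and were not called. In a bulk sample, fewer cells of a type and less RNA per cell cannot be told apart.

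The vessel marker Cldn5 and the choroid plexus marker Ttr were well above the pool, while other members of their lists were mixed. Cldn5, the tight junction protein of brain endothelium, had values of 6.74, 6.31, 5.64, 6.38 and 7.18 and a mean of 6.45 ± 0.57, with STD 5 highest and STD 3 lowest. Of the endothelial and pericyte list 4 of 10 were higher, 1 lower and 5 not called. The median of these 10 was 0.85, or -0.02 with the spike-in zero and -1.30 without loess. A further 3 were seen in hemibrain alone, while Tek and Kcnj8 did not pass the filter. The lower member was the glucose transporter gene Slc2a1 at -1.15 ± 0.20. Ttr, transthyretin of the choroid plexus, had values of 6.61, 6.16, 6.21, 6.47 and 6.43 and a mean of 6.38 ± 0.19. Of the choroid plexus and ependyma list, 4 of 7 were higher around 2.77, or -0.01 without loess, and 3 were seen in hemibrain alone. Clic6, a chloride channel protein, lay at 4.36 ± 0.31, and Otx2, a homeobox factor of the choroid plexus, was at least 4.5-fold higher. Aqp1, a water channel of many tissues, was lower at -2.28 ± 0.39. Haemoglobin genes, which mark red cells left in the tissue, were high too: all 4 measured in both channels were higher, and Hba-a1 had values of 4.50, 4.35, 4.63, 4.46 and 4.80. Probes for near-identical globin copies can share signal, so single globin genes are uncertain.

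**Figure D2:**
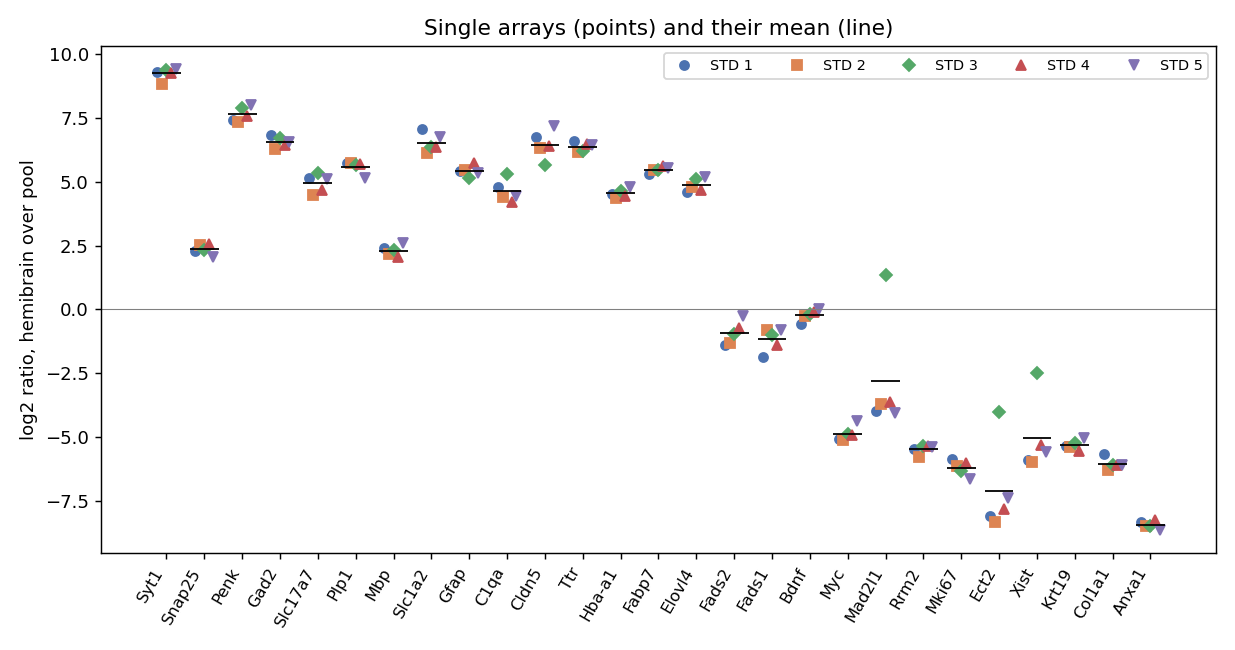
Log2 ratio of hemibrain over cell line pool (y axis) for 27 genes (x axis), with a symbol for each of the 5 STD arrays and a line at their mean. The arrays lie close together for most genes, while STD 3 stands apart for Mad2l1, Ect2 and Xist.

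Genes that make, move and activate long-chain PUFA were read against the pool because the study varied dietary PUFA. Desaturases and elongases build docosahexaenoic and arachidonic acid from dietary precursors, mainly in liver, and brain takes these acids up from blood. Of 26 such genes measured in both channels, 8 were higher, 5 lower and 13 not called, around a median of 0.19 that turned to -0.68 with the spike-in zero. Over all genes measured in both channels 25.5% were higher and 24.1% lower, so the counts of this list lie near the background. Without loess the median was -2.28.

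Some carriers and an elongase of very long chains were on the hemibrain side. Fabp7, the brain fatty acid-binding protein, had values of 5.31, 5.46, 5.46, 5.60 and 5.52 and a mean of 5.47 ± 0.11 (limma adjusted p = 1.02e-07). Elovl4, which makes very long chains, had 4.60, 4.78, 5.10, 4.66 and 5.16 and a mean of 4.86 ± 0.26. Elovl2, the elongase of the last steps toward docosahexaenoic acid, was seen in hemibrain alone (at least 3.38-fold). Mfsd2a, the lysolipid transporter of the blood-brain barrier, had 2.75, 2.93, 3.11, 2.88 and 3.33 and a mean of 3.00 ± 0.22, and Acsl6, which activates docosahexaenoic acid in neurons and was seen in the pool on 3 of the 5 arrays, read 7.11 ± 0.49. None of these genes had an array below 2.5. The other higher members were Acsbg1 (2.85), which activates very long chains, Fabp3 (2.30), a fatty acid-binding protein, Hacd3 (2.06) and Tecr (1.27), which act in chain elongation, and Acsl3 (1.34).

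The desaturases of this pathway read below 0. Fads1, the delta-5 desaturase, had values of -1.85, -0.80, -1.02, -1.40 and -0.80 and a mean of -1.18 ± 0.45 (limma adjusted p = 0.000754). Fads2, the delta-6 desaturase, had -1.41, -1.33, -0.95, -0.72 and -0.26 and a mean of -0.94 ± 0.47, which did not reach a 2-fold difference. STD 1 was lowest for both. Elovl5, which elongates chains of intermediate length, lay at -0.21 ± 0.16 and was not called. Lpcat3, which places PUFA into phospholipids, lay at -2.06 ± 0.45, and Acsl5 at -1.72 ± 0.59. The other lower members were Fads3 (-1.62) and Hacd1 (-1.12). The stearoyl desaturases Scd1 and Scd2 read 0.48 and 0.69, and Fabp5 and Acsl4 read 0.12 and -0.35, none of which was called. On the ERD and BLD arrays, which share the same pool, Fads1 read -2.24 and -1.02 and Fads2 -1.79 and -1.17, as values beside those of STD.

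Genes of mitosis were lower in hemibrain with 1 exception among those measured in both channels. Of 24, 23 were lower and 0 higher, with a median of -3.31, and 11 more were seen in the pool alone. Mki67 had values between -6.63 and -5.87, Birc5, the survivin of the chromosomal passenger complex, of -5.63, -5.98, -5.62, -5.90 and -5.78, and both were far below 0. The member that was not called was Ccne1, a cyclin of the start of S phase, at -0.04. A further Ccne1 probe read -2.21, so this exception depends on the probe. Mad2l1, a spindle checkpoint protein, read -3.97, -3.69, 1.35, -3.62 and -4.05, so that STD 3 alone was above 0, and its mean went from -2.80 to -3.83 without that array. The pool channel of Mad2l1 varied too, with a Cy3 SD of 1.71 beside a median of 0.0706 over genes measured in both channels. Ect2, a regulator of cytokinesis, read -8.10, -8.33, -4.03, -7.80 and -7.38, with STD 3 again highest, and it was above background in hemibrain on that array only. Its mean went from -7.13 to -7.90 without STD 3, over arrays on which hemibrain was not above background.

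DNA replication genes were lower too. Of 30 measured in both channels, 29 were lower and 0 higher, around -3.39, and 4 were seen in the pool alone. Rrm2, a subunit of ribonucleotide reductase, had values of -5.49, -5.80, -5.33, -5.34 and -5.38 and a mean of -5.47 ± 0.19. Cdt1, which licenses replication origins, had -5.43, -5.53, -5.31, -5.63 and -4.80 and a mean of -5.34 ± 0.32. The 5 arrays agreed within 1 log2 unit for each.

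The promoters of these genes hold letters that are known from cell cycle control. CCAAT is bound by the factor NF-Y, TTTGAA is the core of the cell cycle genes homology region read by the DREAM complex, and TTTGGCGC and TTTCCCGC are forms of the E2F site. For mitosis, the promoters of Ect2 (chr3:27153849-27154128, minus strand) and Mki67 (chr7:135716350-135716629, minus strand) are shown, as members that hold both CCAAT and TTTGAA and were called lower. For replication, those of Pole2, a subunit of DNA polymerase epsilon (chr12:69228161-69228440, minus strand), and Mcm6, a subunit of the replicative helicase (chr1:128359676-128359955, minus strand), are shown as members that hold an E2F form and were called lower. The window is that used above, and the capitals mark matches on either strand, of CCAAT and TTTGAA in Ect2 and Mki67 and of the E2F forms in Pole2 and Mcm6. The genes were chosen after their ratios were known.
Ect2: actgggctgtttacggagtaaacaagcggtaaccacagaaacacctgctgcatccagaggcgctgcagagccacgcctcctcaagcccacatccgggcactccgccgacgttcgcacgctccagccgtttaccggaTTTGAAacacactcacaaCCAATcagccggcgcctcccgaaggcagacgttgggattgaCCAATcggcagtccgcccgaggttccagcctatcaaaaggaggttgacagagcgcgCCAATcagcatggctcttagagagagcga
Mki67: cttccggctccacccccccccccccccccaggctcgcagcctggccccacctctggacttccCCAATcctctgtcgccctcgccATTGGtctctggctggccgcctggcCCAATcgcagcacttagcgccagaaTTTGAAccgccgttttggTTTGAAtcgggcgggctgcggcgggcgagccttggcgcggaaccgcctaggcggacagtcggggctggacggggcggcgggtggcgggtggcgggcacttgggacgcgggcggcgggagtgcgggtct
Pole2: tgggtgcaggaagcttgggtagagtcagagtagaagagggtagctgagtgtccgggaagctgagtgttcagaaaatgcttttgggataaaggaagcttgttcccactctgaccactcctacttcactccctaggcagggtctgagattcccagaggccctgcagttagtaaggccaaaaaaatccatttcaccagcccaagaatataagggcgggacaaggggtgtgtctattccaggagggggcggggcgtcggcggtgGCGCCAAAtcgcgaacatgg
Mcm6: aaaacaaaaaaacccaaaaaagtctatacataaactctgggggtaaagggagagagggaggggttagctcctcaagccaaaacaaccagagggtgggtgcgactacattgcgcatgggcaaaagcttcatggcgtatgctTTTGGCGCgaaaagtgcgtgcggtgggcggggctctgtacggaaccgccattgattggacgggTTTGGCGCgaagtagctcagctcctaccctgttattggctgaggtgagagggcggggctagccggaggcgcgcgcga
The TTTGAA match nearest the start lies 114 bases before it in Ect2 and 98 in Mki67, and the nearest E2F form 47 bases before it in Mcm6 and 11 after it in Pole2. Pole2 was seen in the pool alone (at least 2.85-fold lower in hemibrain) and Mcm6 had a mean of -4.91 ± 0.12.

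In the 300-base windows of the RefSeq table, CCAAT and TTTGAA stood together in 59.5% of the 37 mitosis promoters found, against 7.12% of all 27025 promoters and 9.38% of the 32 replication promoters. TTTGAA alone was in 67.6% of mitosis promoters, 12.5% of replication promoters and 18.1% of all. Either E2F form was in 31.2% of replication promoters, 0% of mitosis promoters and 1.63% of all. Over all genes measured in both channels, CCAAT with TTTGAA was in 6.37% of the promoters of genes called lower, 4.05% of those called higher and 4.33% of those not called, and an E2F form in 4.35%, 2.05% and 2.64%. These shares are descriptions of letters and were not tested.

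Genes of ribosome production were also on the pool side, with medians closer to 0 than those of division. Of the ribosome biogenesis and Myc target list, 19 of 27 measured in both channels were lower and 0 higher, around -1.52. Myc itself had values of -5.07, -5.11, -4.89, -4.92 and -4.37 and a mean of -4.87 ± 0.30. Ddx21, a nucleolar RNA helicase, lay at -3.26 ± 0.25. CACGTG, the E-box that Myc and other factors bind, was in 29.2% of the 24 promoters of this list found and in 7.24% of all. Over genes measured in both channels it was in 11% of the promoters of those called lower, 8.8% of those called higher and 11.2% of those not called. It is shown in Wdr43, a nucleolar protein at -2.59 (chr17:71615965-71616244, plus strand), the member with the lowest ratio whose printed window holds it, 18 bases after the start.
Wdr43: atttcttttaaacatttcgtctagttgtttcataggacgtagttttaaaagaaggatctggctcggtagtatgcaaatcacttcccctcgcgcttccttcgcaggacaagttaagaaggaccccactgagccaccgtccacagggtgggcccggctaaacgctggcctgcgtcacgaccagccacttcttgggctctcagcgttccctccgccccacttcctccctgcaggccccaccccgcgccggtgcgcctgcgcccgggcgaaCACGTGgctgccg
Of 36 cytosolic ribosomal protein genes, 10 were lower, 0 higher and 26 not called, around -0.75. The lower count is near the background, as 24.1% of all genes measured in both channels were lower, while 25.5% were higher. These genes have many processed copies in the genome, so single values are uncertain. Rpl5 was lowest at -2.40 ± 0.67.

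Aminoacyl-tRNA synthetase and serine and one-carbon genes followed, with 21 of 27 lower and 0 higher, around -1.60. Shmt2, the mitochondrial serine hydroxymethyltransferase, had values of -2.96, -3.39, -3.67, -3.36 and -3.43, and Trib3, a target of the amino acid response, of -4.83, -5.10, -4.70, -4.77 and -4.05. Both were below -2.9 on every array. Cholesterol synthesis was mixed, with 8 of 23 lower, 2 higher and a median of -0.36. The 2 higher members were Cyp46a1, the neuronal 24-hydroxylase that clears cholesterol from brain, at 2.74 ± 0.30, and Hmgcs1 at 1.22 ± 0.08.

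The list of extracellular matrix and fibroblast genes had the lowest median of all lists with 5 or more genes measured in both channels. Its lowest member was Anxa1 (-8.44). Of 29, 28 were lower and 0 higher, around -3.66, and 5 were seen in the pool alone. Col1a1 had values of -5.65, -6.30, -6.10, -6.11 and -6.10. Lox, which cross-links collagen, was seen in the pool alone (at least 6.59-fold lower in hemibrain). Of the integrin and actin list 20 of 26 were lower around -2.07, led by Cnn2, an actin-binding calponin, at -4.09 ± 0.24. The higher member was Csrp1, a LIM-domain protein, at 2.01 ± 0.15.

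Epithelial genes were few and mostly low. Of 6 measured in both channels 5 were lower and 1 higher (1.02), around -3.35. Of the 19 tested in any channel 14 were lower and 2 higher. A further 8 of the 27 on the array, Cdh1 and Krt5 among them, did not pass the filter. The keratin Krt19 had values of -5.36, -5.37, -5.22, -5.54 and -5.03, and Epcam, an epithelial adhesion molecule, was seen in the pool alone (at least 3.26-fold lower). Antigen presentation and interferon genes were lower as well. Of the antigen presentation list 10 of 13 were lower around -2.25, with the immunoproteasome subunit Psmb8 at -3.13, -3.48, -3.34, -3.18 and -3.28. The class II gene H2-Ab1 was higher at 1.42 ± 0.44. Of the interferon list 10 of 14 were lower and 0 higher around -1.99, with Oas1a, an antiviral synthetase, at -4.67, -4.39, -4.56, -4.82 and -4.59.

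Lists of other lineages were read to see which kinds of cell differ between tissue and pool. Of the macrophage list 9 of 10 measured in both channels were lower around -3.16, and 7 were seen in the pool alone. Cd14, a co-receptor for bacterial lipopolysaccharide, had values of -4.96, -4.74, -5.17, -4.88 and -4.56. Of the B lymphocyte list 6 of 10 were lower around -2.03, led by Pou2af1, a B cell coactivator, at -4.88 ± 0.32. The T lymphocyte list gave 4 higher and 4 lower of 9. Cd3e, a chain of the T cell receptor complex, was lower at -1.55 ± 0.33, and 7 members were seen in the pool alone. The members of that list that were higher, Satb1, Thy1, Bcl11b and Cd4, include the neuronal genes Satb1 (4.56), Thy1 (3.15) and Bcl11b (2.26). Of the liver and yolk sac list, 11 of 21, Alb among them, did not pass the filter, so they gave little signal in either channel, and Afp, alpha-fetoprotein, was seen in the pool alone (at least 3.26-fold lower). All 5 members measured in both channels were higher, around 2.32 or -0.09 without loess. They were Ttr, Vtn (5.26), which encodes vitronectin, Rbp4 (2.32), a retinol carrier, Apoa2 (1.70), an apolipoprotein, and Igf2 (1.04), a growth factor. Of 14 embryonic stem and embryo genes 4 were higher and 5 lower around 0.36, or -0.51 with the spike-in zero and -0.81 without loess. Hmga2, a chromatin protein of fetal and tumour cells, was lowest at -5.34 ± 0.37. Of the mast cell and erythroid list 4 of 5 were higher and 0 lower around 3.50, and 3 were seen in hemibrain alone. The higher members were the globin genes Hba-a1 and Hbb-bt (4.28), the erythropoietin receptor gene Epor (1.79) and the mast cell protease gene Tpsb2 (3.50). Kit, a growth factor receptor, and Alas2, an enzyme of haem synthesis, were at least 6.02-fold and 2.11-fold higher. Of the kidney, testis and melanocyte lists 8 of 15, 12 of 17 and 5 of 10 genes did not pass the filter. Of skeletal muscle genes 6 were seen in the pool alone and 9 of 26 did not pass the filter. The 7 measured in both channels lay around 0.02, or -0.85 with the spike-in zero and -0.81 without loess.

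**Figure D3:**
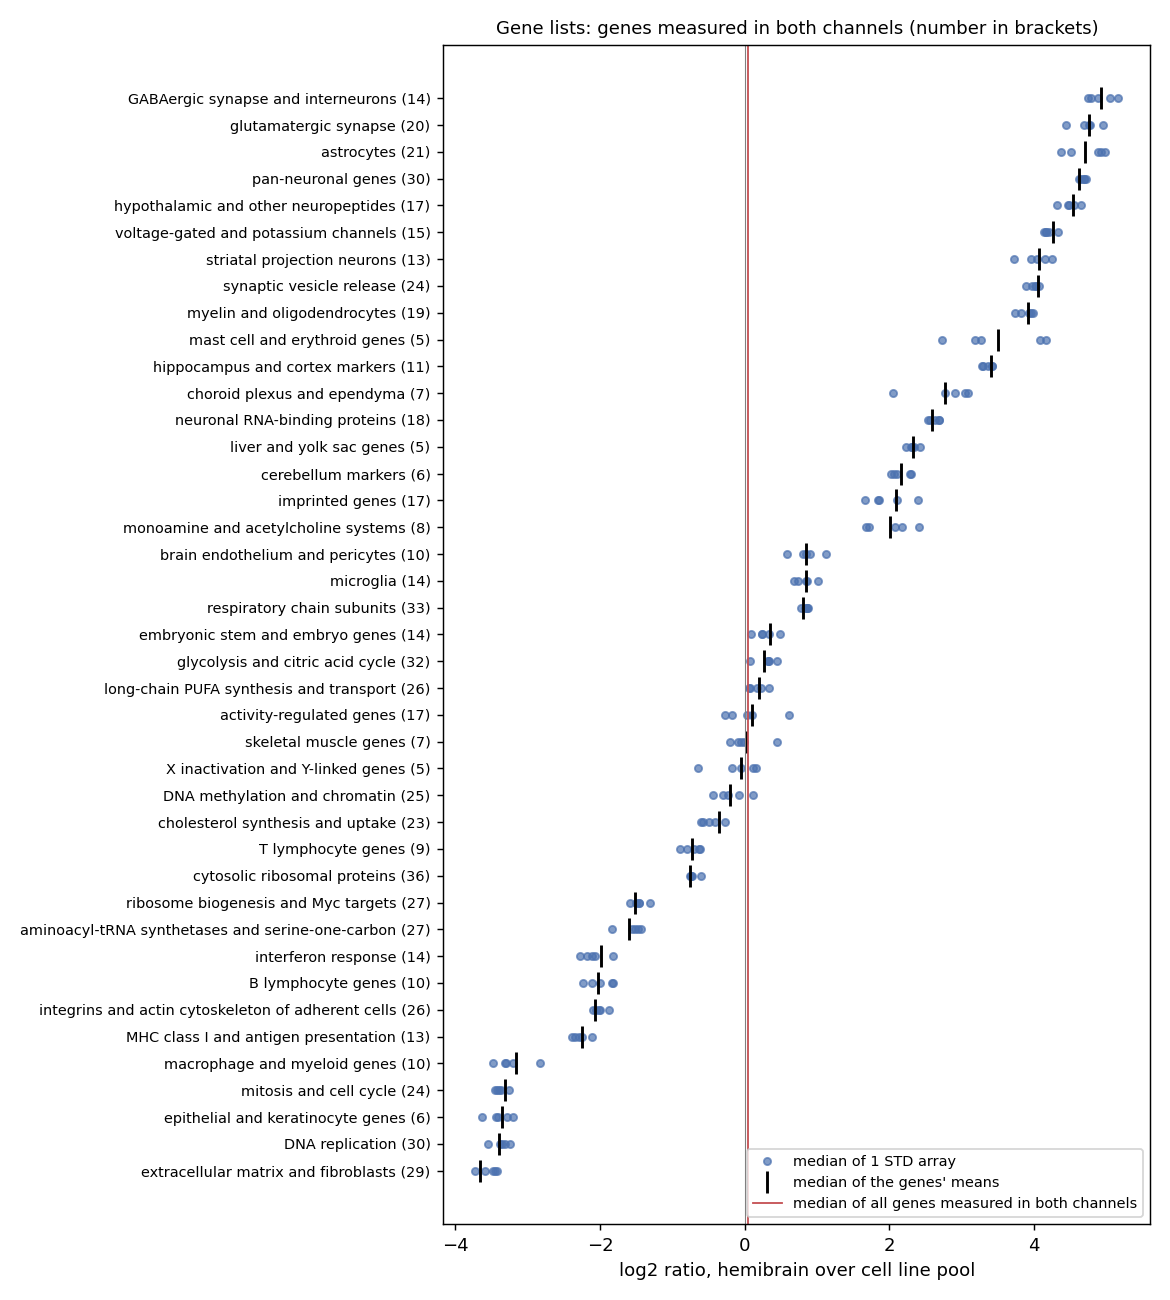
Median log2 ratio of hemibrain over cell line pool (x axis) for each gene list with 5 or more genes measured in both channels (y axis, number of genes in brackets). Points are the medians of single STD arrays, black ticks the medians of the genes' means and the red line the median of 0.05 over all genes measured in both channels.

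Energy metabolism genes lay near the pool as groups, while single isoforms did not. Of 33 respiratory chain subunit genes, 10 were higher and 0 lower, and their median of 0.81 became -0.06 with the spike-in zero and -2.15 without loess. Of 32 glycolysis and citric acid cycle genes 9 were higher and 6 lower, around 0.27, or -0.60 with the spike-in zero and -2.61 without loess. Ldhb, the lactate dehydrogenase subunit of oxidative tissue, had values of 3.91, 3.68, 3.41, 3.83 and 2.83, and Ldha, the subunit of glycolytic cells, of -1.72, -1.67, -1.46, -1.60 and -1.26. The 2 sets of values did not overlap. Slc16a3, which exports lactate, lay at -2.96 ± 0.10.

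A list of 38 pairs of related genes, with a brain or neuronal member first and a broadly expressed member second, was read in the same way. In 27 pairs both members were measured in both channels. The first member was higher in 22 of the 27, the second was lower in 12, and both held in 9. The first had the larger ratio in 25. The 9 pairs were Ldhb with Ldha, the hexokinases Hk1 (1.37) and Hk2 (-2.36), the phosphofructokinases Pfkm (1.89) and Pfkl (-1.11), the beta-tubulins Tubb3 (5.62) and Tubb6 (-3.89), and the alpha-tubulins Tuba4a (1.03) and Tuba1c (-4.14). The others were the RNA-binding Elavl4 (5.42) and Elavl1 (-2.90), the glucose transporters Slc2a3 (2.29) and Slc2a1 (-1.15), the elongation factors Eef1a2 (5.78) and Eef1a1 (-1.03), and the profilins Pfn2 (3.63) and Pfn1 (-1.80). A further Elavl1 probe read 2.27, so Elavl1 has no settled direction. Without loess Hk1, Pfkm, Tuba4a and Slc2a3 read -1.50, -0.87, -1.98 and -0.37. A further Hk1 probe read 0.37.

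In 5 of the 27 pairs the first member was not called higher. Lmna, the lamin of differentiated cells, was lower at -2.39 ± 0.20, as was Lmnb1 at -3.14 ± 0.71. The cyclin Ccnd2 read -0.97 ± 0.11 and was not called, and Ccnd1 was lower at -1.39 ± 0.17. Cfl2, a cofilin of muscle and brain, lay at -1.01 ± 0.21 and Cfl1 at 0.82 ± 0.07. The oligodendrocyte tubulin Tubb4a lay at -0.14 ± 0.21, beside -0.11 ± 0.12 for Tubb5. Ptbp2, the neuronal splicing repressor, lay at 0.09 ± 0.29 and was not called, while its partner Ptbp1 was lower at -2.29 ± 0.17. Of the pairs whose first member was higher, Stmn2 (3.63 ± 0.16) and Stmn1 (3.61 ± 0.07) read closest, and a further Stmn1 probe read 1.61.

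**Figure D4:**
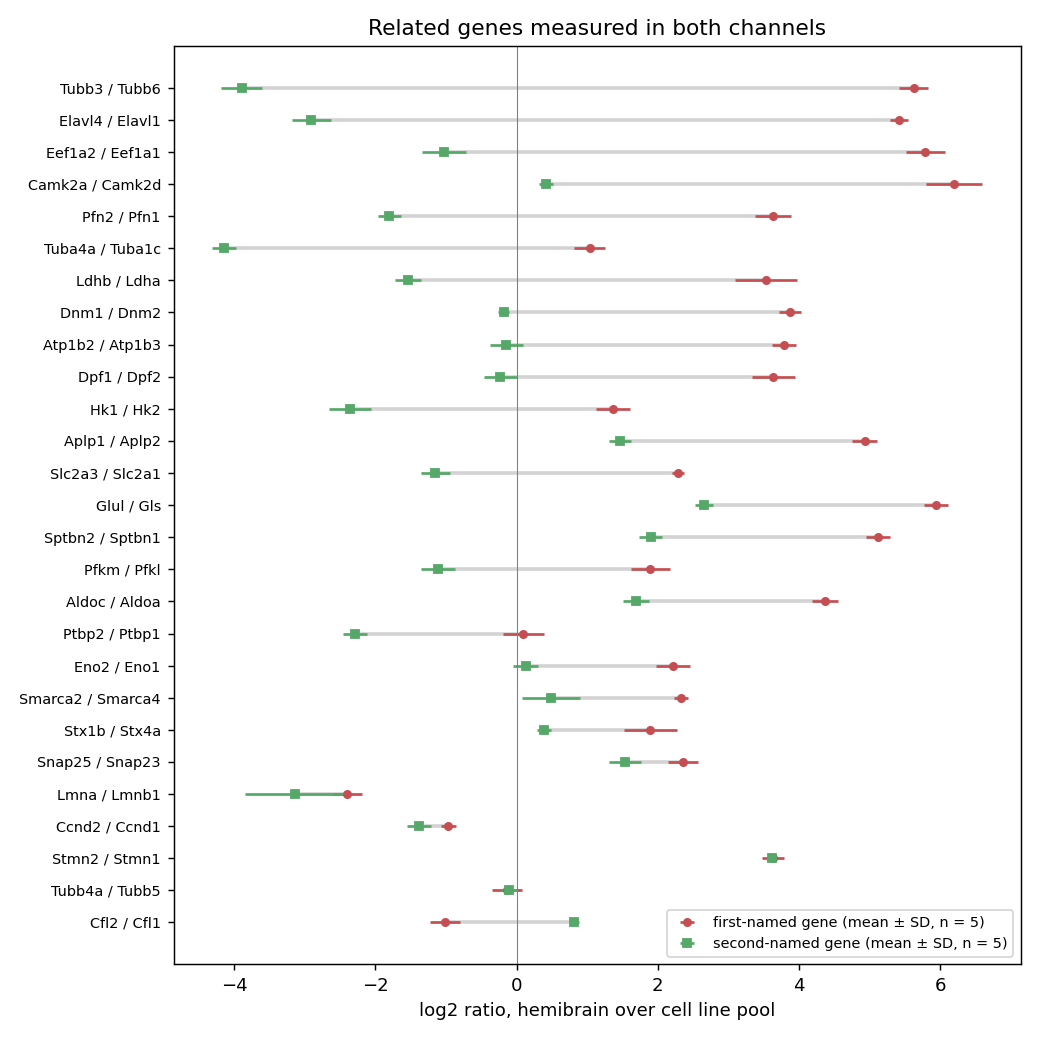
Mean log2 ratio of hemibrain over cell line pool with its SD over the 5 STD arrays (x axis) for 27 pairs of related genes (y axis), with circles for the first-named and squares for the second-named member. The circle lies to the right of the square in 25 of the 27 pairs.

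Chromatin and imprinted genes each moved both ways. Of 25 DNA methylation and chromatin genes 5 were higher and 9 lower, around -0.21, or -1.08 with the spike-in zero and -2.48 without loess. The median changed sign to 0.01 when each array's median was set to 0 and to 0.08 with normexp at offset 1 and loess. The histone deacetylase Hdac11 had values of 3.48, 3.34, 3.76, 3.75 and 4.28. Dnmt3a, a de novo methyltransferase, had 1.66, 1.41, 1.48, 1.38 and 1.67 and read -0.99 without loess, and Dnmt3b, seen in hemibrain on 4 of the 5 arrays, lay at -3.20 ± 0.43. Ezh2, the Polycomb methyltransferase of dividing cells, was seen in hemibrain on 4 of the 5 arrays and lay at -4.55 ± 0.90. Its relative Ezh1 lay at 0.65 ± 0.11, with further probes at -1.305 and 0.53. Of 17 imprinted genes 12 were higher and 2 lower around 2.09, or -0.09 without loess. Nap1l5 lay at 6.92 ± 0.29, Snrpn at 6.56 ± 0.16 and Mest at 4.17 ± 0.31, and all of these are known to be expressed from the paternal allele. Dlk1, a Notch family ligand that is also paternally expressed, was lower at -3.28 ± 0.29.

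Xist, the RNA that coats the inactive X chromosome and is made in female cells, read -5.90, -5.97, -2.49, -5.30 and -5.58, with STD 3 above the other 4 and a mean of -5.05, or -5.69 without STD 3. It was above background in hemibrain on 1 of the 5 arrays, STD 3, so -5.69 rests on hemibrain signal not above background. In the pool it was above background on all 5, although the labels give male for both channels. The Y-linked gene Eif2s3y had values of 1.73, 2.03, 1.52, 1.62 and 1.13 and a mean of 1.61 ± 0.33, and Ddx3y lay at -0.25 ± 0.40. Both were above background in the pool on all 5 arrays, so the pool gave signal for Xist and for Y-linked genes.

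The spread among mice was small beside these ratios. Over genes measured in both channels the median SD of a ratio was 0.237, and on the normalized single channels it was 0.223 in Cy5 and 0.0706 in Cy3, the channel of the shared pool. Leaving out any 1 array kept the counts between 6150 and 6215 genes higher and between 8364 and 8493 lower. Where a called gene had further probes, 86.2% of 2500 such probes had the same sign, and 131 read at least 2-fold the other way.

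STD was also set beside the mean of ERD and BLD, with all 15 arrays against the same pool. In this comparison 25 of 25308 genes (0.0988%) had a limma adjusted p under 0.05, and 0 of the 305 genes chosen by the naming rule passed, the lowest adjusted p among them being 0.116. Without adjustment 68 of the 305 had a limma p under 0.05. All 5 STD arrays were scanned on the first day, while 1 ERD and 3 BLD arrays were scanned on the second. On the arrays of the first day alone (5 STD, 4 ERD and 2 BLD) 0 genes passed, with 2516 at an unadjusted limma p under 0.05. With scan day as a term in the model 1 of the 25 passed, and with slide as a random block 35 genes did, the 25 among them. None of the 305 passed in these settings, and 34, 39 and 68 of them had an unadjusted limma p under 0.05. Syt1 read 9.23 in STD, 8.91 in ERD and 7.97 in BLD, Mki67 -6.20, -6.20 and -5.47, and Col1a1 -6.05, -6.14 and -5.58. Snap25 read 2.36, 3.66 and 3.59. The 3 sets of ratios share the pool, so their likeness is not independent support. Without STD 1, STD 2, STD 3, STD 4 or STD 5 the count of 25 became 10, 13, 1, 1 or 3.

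**Figure D5:**
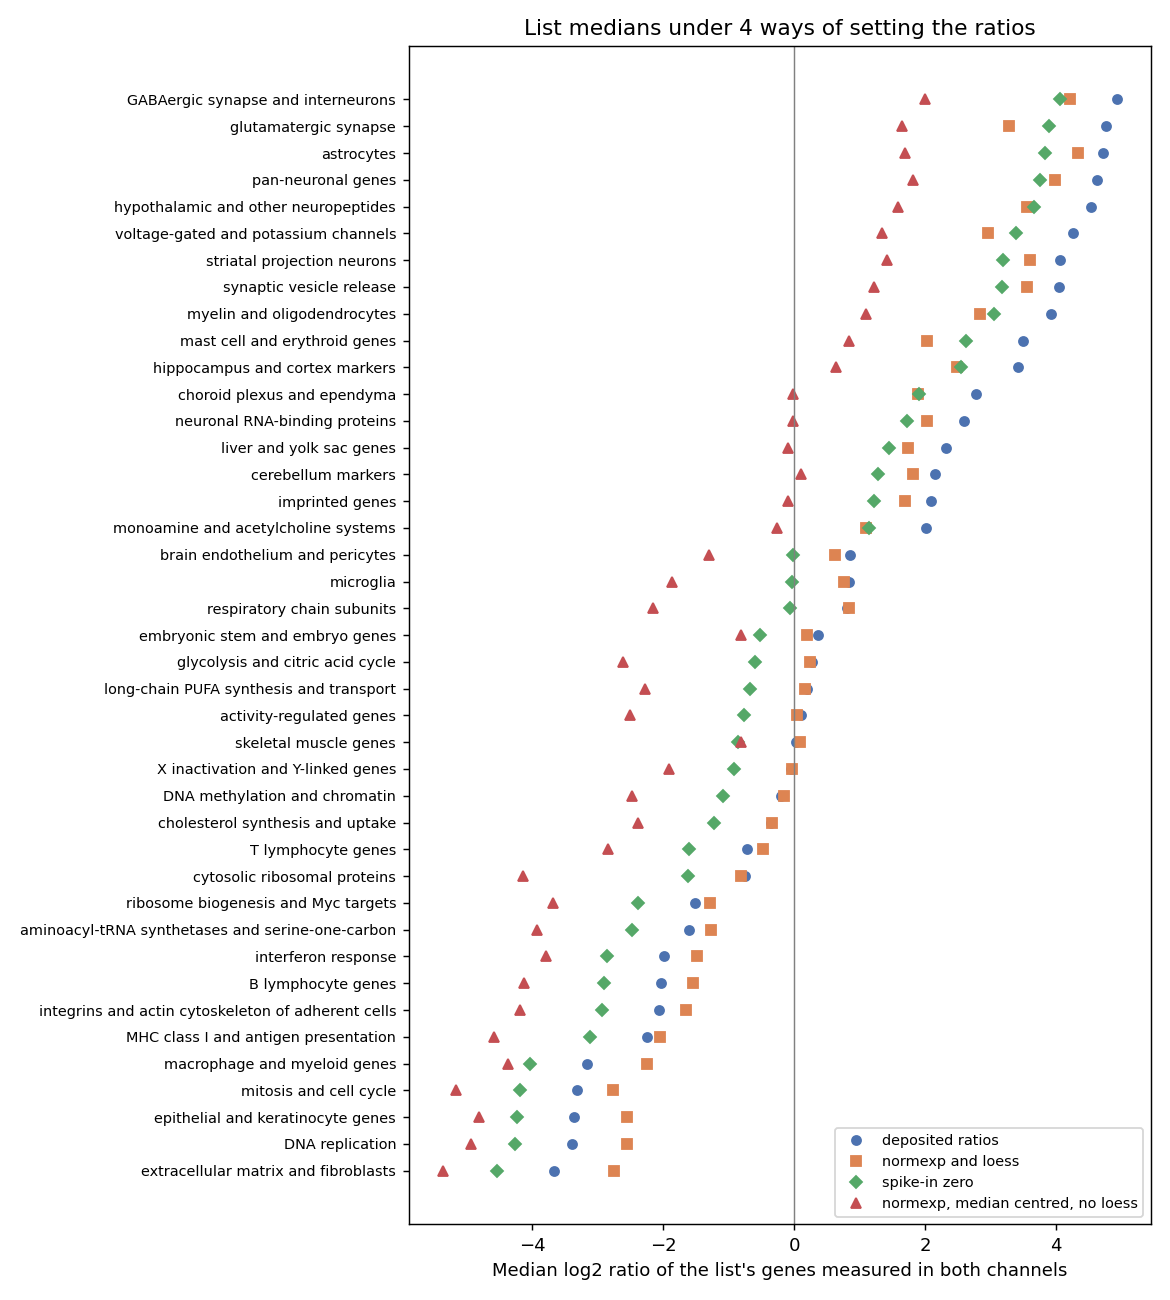
Median log2 ratio of each gene list (x axis; lists on the y axis, genes measured in both channels) under 4 ways of setting the ratios. The spike-in zero lies to the left of the deposited ratios by 0.872, and without loess lists such as respiratory chain subunits (0.81 as deposited) fall to -2.15.

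The sign of small ratios depended on where 0 was placed. With each array's spike-in shift taken away, the median over all genes went from -0.24 to -1.11, and 3826 genes were called higher and 13317 lower. With normexp background correction and median centring but no loess, the median went to -1.25, with 1274 higher and 13966 lower. The pan-neuronal median was 4.62 as deposited, 3.98 after normexp and loess, 3.75 with the spike-in zero and 1.82 without loess. The mitosis median was -3.31, -2.77, -4.18 and -5.16 in the same order. Among the genes given as higher, Acsl3, Apoa2, Bcl11b, Cd4, Csrp1, Dnmt3a, Eif2s3y, Epor, Fabp3, H2-Ab1, Hacd3, Hk1, Hmgcs1, Igf2, Mbp, Pfkm, Rbp4, Slc2a3, Snap25, Tecr, Thy1 and Tuba4a read below 0 without loess. The pan-neuronal, glutamatergic, GABAergic, vesicle release, channel, neuropeptide, myelin and astrocyte lists had medians above 0 in each of these 4 settings. The mitosis, replication, matrix and epithelial lists had medians below 0 in each.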

How the data were processed

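RNA of 15 left hemibrains was measured in Cy5 against 1 reference pool in Cy3 on Agilent 2-colour arrays, and the 5 STD arrays were used here. The deposited files are Agilent Feature Extraction output, version 11.5.1.1 per the file headers and 10.7 per the submitters' processing notes. They hold each spot's intensity per channel and a log10 ratio of Cy5 over Cy3, which the scanner software had background-corrected and dye-normalized, per the file headers. The series' deposited log10 ratios equal these to 5e-10. No spot was saturated.

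The log10 ratios were turned into log2 and outlier spots were left out. Genes were kept when well above background in either channel on at least 4 of 5 arrays, and the brightest probe stood for each symbol, from a RefSeq table (GRCm38.p6) that named 27656 of 55681 probes. Mean ratios were tested against 0 with limma 3.58.1 (R 4.3.3, Benjamini-Hochberg), in scripts tested on simulated data. The labels give no litters or cages, so p-values measure only the spread between these samples. "At least" folds set the bright channel against the dimmest signal counted as above background, after normexp, loess and Aquantile scaling.

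Gene lists and members were chosen with earlier results of these data known. By rule the text names the highest and lowest ratios, the strongest genes of 1 channel, members at the ends of each list and the gene pairs. Acsbg1, Acsl3, Acsl4, Agrp, Apoa2, Bcl11b, Btg2, Cartpt, Ccne1, Cd4, Clic6, Egr1, Epor, Fabp3, Fabp5, Fads3, Fos, Fxr2, Hacd1, Hacd3, Hbb-bt, Igf2, Jun, Laptm5, Mad2l1, Mcm6, Msi2, Nova1, Rbp4, Scd1, Scd2, Tecr, Tpsb2, Trem2, Tyrobp and Wdr43 were named after their values were seen. Alternatives covered background correction, dye normalization, the zero of the ratio, the dim filter, the probe per gene, each array left out and, for the diets, scan day and slide.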

Additional observations from a re-analysis of the deposited data

Results flagged for a closer look

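In groups of 5 arrays, a gene or array measure is given here when its most extreme value lay further from the nearest other value than 0.71 of the whole range, Dixon's limit, which chance passes in about 1 of 20 groups. Of the 174 genes named in the report, 13 (7.47%) passed it, and Mad2l1 was named because of its value on STD 3.

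On STD 3, Mad2l1, Ect2 and Xist stood above the other 4 arrays. Mad2l1 read 1.35 beside -4.05 to -3.62, Ect2 -4.03 beside -8.33 to -7.38, and Xist -2.49 beside -5.97 to -5.30. Ect2 and Xist were above background in hemibrain on STD 3 alone, so their values on the other 4 arrays rest on hemibrain signal not above it. Mki67 and Rrm2 on STD 3 read -6.34 and -5.33. On the normalized single channels the SD of Mad2l1 was 3.68 in Cy5 and 1.71 in Cy3, the channel of the shared pool. For Ect2 these SDs were 0.27 and 0.0587, and for Xist 0.227 and 0.0619. The median Cy3 SD over genes measured in both channels was 0.0706. Further probes for Mad2l1 had means of -2.85 and -2.58. The cause was not tested.

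The other genes are given with the range of the remaining 4 arrays. On STD 1 the values were Lmnb1 -4.36 beside -3.05 to -2.56. On STD 2 the values were Nefl 8.50 beside 9.05 to 9.24. On STD 5 the values were Acsbg1 2.67 beside 2.88 to 2.91, Acsl3 0.50 beside 1.41 to 1.78, Cx3cr1 7.16 beside 6.20 to 6.40 and Eef1a1 -1.55 beside -0.99 to -0.79. It also gave Fads3 -1.76 beside -1.59 to -1.57, Hk1 0.95 beside 1.42 to 1.53, Ndrg1 -2.59 beside -2.17 to -2.02 and Tyrobp 0.48 beside -0.20 to -0.07.

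Of the array measures, STD 5 had the lowest median correlation with the other STD arrays, 0.938 beside 0.9625 to 0.9647, and 35 tested genes with a ratio of exactly 0 beside 0 to 3. STD 2 had a spike-in shift of -0.084 beside 0.95 to 1.35.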

How the results depend on the processing

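Depth here is signal over background: 582 genes in the pool and 2171 in hemibrain have only a bound, and a single pool and a single dye orientation mean that dye and tissue cannot be told apart. No paired analysis was possible because the mean ratio is tested against 0 within 1 group and the labels share no replicate numbers between diets. Normexp with offset 50 and loess called 3787 genes higher and 3513 lower. Without loess the counts were 1274 and 13966, with 2582 calls turned, and with the spike-in zero, chosen after seeing the data, 3826 and 13317, with 0 turned. With both channels required the lower count was 3925 because fewer genes were tested. The higher share of calls was 42.1% as deposited, 53.4% with normexp offset 1, 8.36% without loess and 22.3% with the spike-in zero. Counts without any 1 array were 6150 to 6215 higher and 8364 to 8493 lower, and 1 to 13 for STD against the other diets, where normexp with offset 50 and loess gave 37, the arrays of scan day 1 alone 0, scan day as a term 1 and slide as a random block 35 (these 3 chosen after seeing the data). The other alternatives kept both counts within 1.5 times: ratios of exactly 0 left out (also chosen after seeing the data), each array's median set to 0, other probe rules, the dim filter, outlier spots kept, all 15 arrays, a test against 2-fold and adjusted p under 0.01. Without loess 31 named genes changed sign, and the cause was not tested. Their values were Acsl3 -0.92, Apoa2 -0.93, Bcl11b -0.21, Cd4 -1.06, Cfl1 -2.50, Csrp1 -1.25, Dnmt3a -0.99, Egr1 -2.53, Eif2s3y -0.70, Epor -0.64, Ezh1 -1.71, Fabp3 -0.44, Fabp5 -2.80, Fxr2 -1.88, H2-Ab1 -0.70, Hacd3 -0.86, Hk1 -1.50, Hmgcs1 -1.48, Igf2 -0.092, Mbp -0.29, Msi2 -2.16, Pfkm -0.87, Ptbp2 -1.60, Rbp4 -0.31, Scd1 -2.07, Scd2 -2.33, Slc2a3 -0.37, Snap25 -0.60, Tecr -1.49, Thy1 -0.20 and Tuba4a -1.98. With the probe with the highest Cy5 level the sign changed for Elavl1 2.27.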
